A study of Mus musculus with 4 samples.

Results

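The Id proteins and the E proteins they bind were followed in mouse embryonic stem (ES) cells labelled as knockouts of the histone acetyltransferase KAT6A and in control cells. The 7 genes were taken by symbol from the per-library count tables: Id1, Id2, Id3 and Id4, which encode the Id proteins, and Tcf3, Tcf4 and Tcf12, which encode the E proteins E2A, E2-2 and HEB. All 7 were among the 41543 gene symbols counted and among the 16112 expressed highly enough to be tested. They were chosen by name as 1 family, with the fold changes between these KO and control libraries already known, so their values and calls in this comparison are given as a description, without p-values. The groups were 2 libraries labelled KAT6A KO, from cells edited with CRISPR/Cas9, and 2 control libraries. Both came from the E14TG2a line, a feeder-independent mouse ES cell line, kept on gelatin in medium with fetal calf serum and the cytokine LIF. Neither the position of the edit nor the origin of replicates (separate clones, cultures or preparations) is stated in the labels, so the errors and p-values cover the spread among the 4 libraries alone, which may be technical.

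Id proteins are helix-loop-helix (HLH) proteins without the basic region that contacts DNA. They pair with E proteins and keep them from binding E-boxes, DNA sites of the form CANNTG, alone or together with tissue-restricted partners such as the neurogenic and mesodermal basic HLH (bHLH) factors. Id genes are classic targets of bone morphogenetic protein (BMP) signalling through SMAD1, SMAD5 and SMAD9, and in ES cells grown with LIF the serum or BMP that induces them is known to hold back neural differentiation. The gene Tcf3 meant here is the one for E2A, not Tcf7l1, which was long called Tcf3 in work on ES cells, and Tcf4 is the gene for E2-2, not Tcf7l2.

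The promoters of the genes that moved most, Id4 and Id2, are shown with that of Tcf3, the most abundant E protein gene in CPM. The sequences are RefSeq's on GRCm38.p6, 5′ to 3′ on the strand of the gene, and run up to the RefSeq start or to the first base that GENCODE M21 annotates as an exon of the gene. For Id2 the stretch shown lies upstream of the RefSeq start but within the GENCODE gene, in the first intron of its longest transcript. Capitals mark GGCGCC, a GC-rich element that BMP-activated SMADs are known to bind, CCAAT (or ATTGG on the other strand) and the E-box CANNTG.
Id4, chr13:48260866-48261115, plus strand: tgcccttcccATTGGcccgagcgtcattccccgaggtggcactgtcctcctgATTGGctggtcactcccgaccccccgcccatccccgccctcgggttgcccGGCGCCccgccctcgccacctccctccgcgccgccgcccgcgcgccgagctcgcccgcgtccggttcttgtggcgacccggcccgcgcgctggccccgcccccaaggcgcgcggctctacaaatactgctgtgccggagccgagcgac
Id2, chr12:25096254-25096342, minus strand: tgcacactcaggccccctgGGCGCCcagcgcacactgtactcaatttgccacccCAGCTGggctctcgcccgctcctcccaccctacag
Tcf3, chr10:80433648-80433885, minus strand: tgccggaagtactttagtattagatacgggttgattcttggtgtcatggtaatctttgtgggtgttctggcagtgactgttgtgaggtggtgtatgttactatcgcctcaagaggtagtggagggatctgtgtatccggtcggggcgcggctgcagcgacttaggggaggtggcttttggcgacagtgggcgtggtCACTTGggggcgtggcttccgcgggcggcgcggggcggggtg

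In the libraries labelled KAT6A KO, RNA of Id4 fell to 0.252 times the control level and that of Id2 to 0.564 times it, while Id1, Id3 and the 3 E protein genes did not pass the threshold. Of the 4 Id genes, 2 were thus lower, and Id1 and Id3 had fitted log2 fold changes of -0.41 and 0.35. Against the control mean, Id3 was at -0.011 in the library labelled KAT6A KO 1 and at 0.64 in that labelled KAT6A KO 2. Differences between members were not tested. In the fit over all tested genes (edgeR's quasi-likelihood test with Benjamini-Hochberg adjustment, passed at an adjusted p under 0.05), 2 of the 7 members were lower and 0 higher, against 8.57% of all tested genes lower and 5.76% higher (14.3% in either direction). Of the 2, Id4 was lower by at least 2-fold, as were 2.57% of all tested genes. Chromosome 11, which holds no member, adds to the share of lower genes, with 536 lower and 9 higher among its 1322 tested genes. At an unadjusted p under 0.05, 1 member was higher, the same number as with the likelihood ratio test at the adjusted threshold, and DESeq2 and limma-voom gave 0. The shares of all genes are for the adjusted threshold. They stand beside the members' counts at that threshold as background, and nothing is read from the difference. No such share is given for the count at an unadjusted p.

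Library totals were 30185640 and 27494041 counts in the libraries labelled KAT6A KO 1 and 2, and 35616899 and 37354623 in control 1 and 2. The members had from 138 to 5499 counts in a library, so counting alone gives a relative error of 8.51% at the lowest and 1.35% at the highest count. The KO libraries lay farther apart than the controls: the ratio of the higher to the lower library had a median of 1.18 over all tested genes within the KO pair and 1.06 within the control pair. Kat6a itself had 242 and 86.4 CPM (the usual unit of counts scaled to library size, here with TMM composition factors) in the libraries labelled KAT6A KO 1 and 2, and 145 and 143 CPM in control 1 and 2. The library labelled KAT6A KO 1 thus held more Kat6a RNA than either control and the library labelled KAT6A KO 2 less. Against the control mean they were at 1.69 and 0.60 times, so the KO libraries differed in direction on the targeted gene, and the reason was not tested. The position of the edit is not stated, so this count does not check the labels. ES cell identity was checked on 6 markers (Pou5f1, Sox2, Nanog, Zfp42, Esrrb and Tdgf1), which summed to 4409 and 4837 CPM in the KO libraries and to 3673 and 3752 CPM in the controls. Of these 6 markers 1 rose, Esrrb, with 1435 and 1460 CPM in the KO libraries and 977 and 979.5 CPM in the controls. Of 6 primitive endoderm markers, 4 were lower (Gata4, Gata6, Pdgfra and Sox7), and the 6 summed to 49.97 and 111 CPM in the KO libraries, against 233 and 236 CPM in the controls. Of the other lists, 2 of 5 trophoblast markers (Gata3 and Krt7) were lower, 2 of 5 neural markers (Sox1 and Tubb3) were higher and 1 (Nes) lower, and none of the mesoderm, fibroblast and blood markers passed the threshold. Hbb-bs, of the blood list, was at 0 in all libraries. In bulk RNA, fewer cells of a type and less RNA per cell cannot be told apart, and the part of the endoderm cells in the results below was not tested.

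**Figure D1:**
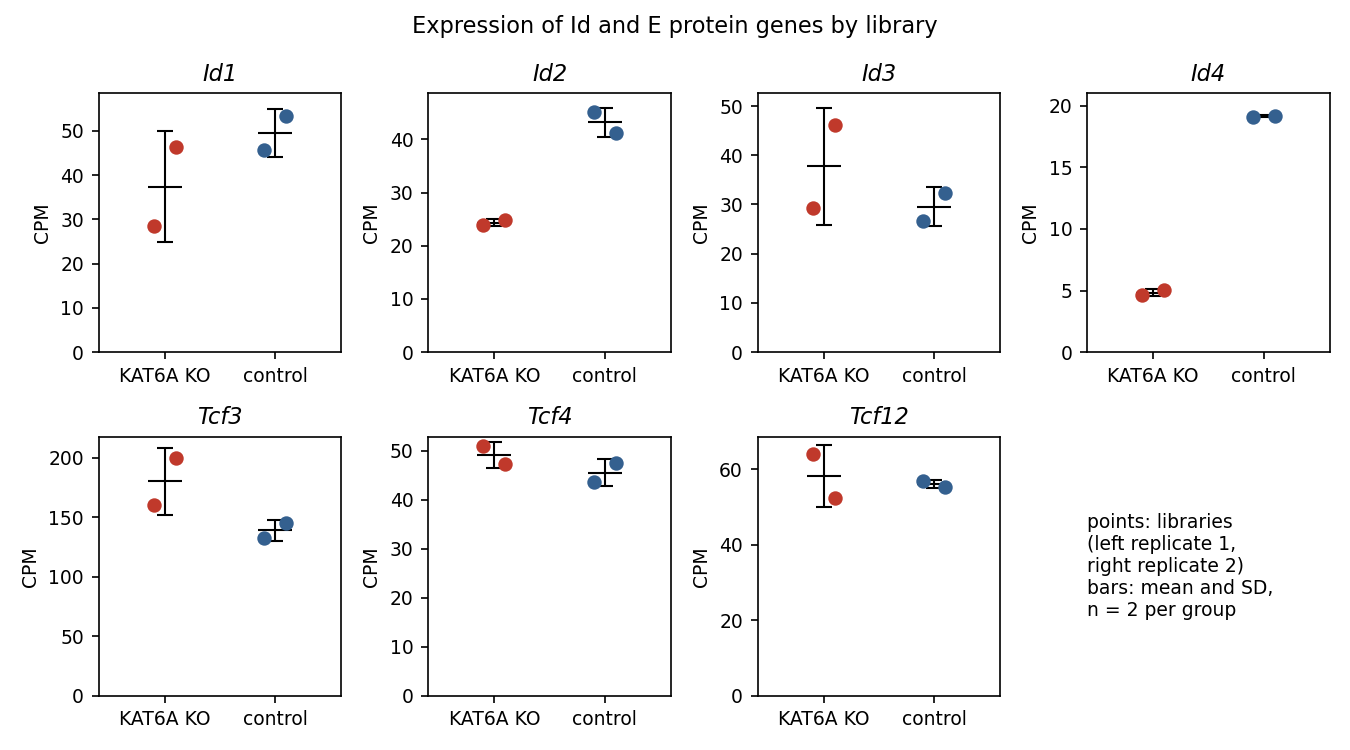
CPM of the 4 Id genes and the 3 E protein genes in each library, with KAT6A KO on the left and control on the right of each panel. Points are libraries (replicate 1 left, replicate 2 right), and bars are the mean and SD of 2 libraries. The groups are far apart for Id2 and Id4 (4.63 and 5.02 CPM against 19.1 and 19.2 CPM), close but separate for Tcf3, and overlap for the other members.

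Id4 had the largest change of the members. This gene on chromosome 13, known for its roles in neural progenitors and spermatogonial stem cells, had 4.63 and 5.02 CPM (141 and 138 counts) in the libraries labelled KAT6A KO 1 and 2, and 19.1 and 19.2 CPM (678 and 711 counts) in control 1 and 2. Both KO libraries were far below both controls, and the libraries within each group nearly coincided. The level was 3.96-fold lower, a log2 fold change of -1.99 ± 0.14 (SE), and 0.807% of all tested genes had a lower fold change. Without each library in turn the log2 fold change lay between -2.05 and -1.93, and under the other settings between -2.02 and -1.80.

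Id2, on chromosome 12, encodes the Id protein best known from innate lymphoid cells and from its pairing with the retinoblastoma protein. It had 23.9 and 24.8 CPM (728 and 681 counts) in the libraries labelled KAT6A KO 1 and 2, and 45.1 and 41.2 CPM (1604 and 1527 counts) in control 1 and 2. The groups did not overlap, and the KO libraries differed from each other less than the controls did. The level was 1.77-fold lower, a log2 fold change of -0.83 ± 0.10 (SE), and 6.34% of tested genes had a lower fold change. It ran from -0.89 to -0.77 without each library in turn and from -0.86 to -0.71 under the other settings.

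Id1 and Id3, the Id genes most often used as readouts of BMP signalling, differed widely between the KO libraries and did not pass the threshold. Id1, on chromosome 2, had 28.5 and 46.3 CPM in the libraries labelled KAT6A KO 1 and 2, and 45.8 and 53.3 CPM in control 1 and 2. The library labelled KAT6A KO 1 was below both controls, and the library labelled KAT6A KO 2 lay between them. The log2 fold change was -0.41 ± 0.22 (SE). Leaving out the library labelled KAT6A KO 1 gave -0.10, and leaving out that labelled KAT6A KO 2 gave -0.80, where Id1 passed.

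Id3, on chromosome 4, had 29.3 and 46.2 CPM in the libraries labelled KAT6A KO 1 and 2, and 26.7 and 32.3 CPM in control 1 and 2. Here the library labelled KAT6A KO 1 lay between the controls, and the library labelled KAT6A KO 2 was above both. The log2 fold change was 0.35 ± 0.22 (SE). Leaving out the library labelled KAT6A KO 1 gave 0.64, where Id3 passed, and leaving out that labelled KAT6A KO 2 gave -0.016. In both genes the library labelled KAT6A KO 2 was the higher of the pair, by 1.63 times for Id1 and 1.58 times for Id3. Of all tested genes, 12% and 13.5% had a ratio as large within the KO pair. Control 2 was likewise the higher control, by 1.16 times for Id1 and 1.21 times for Id3. For Id2 and Id4 the ratio within the KO pair was 1.04 and 1.08, and 88.0% and 73.0% of tested genes had one as large.

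**Figure D2:**
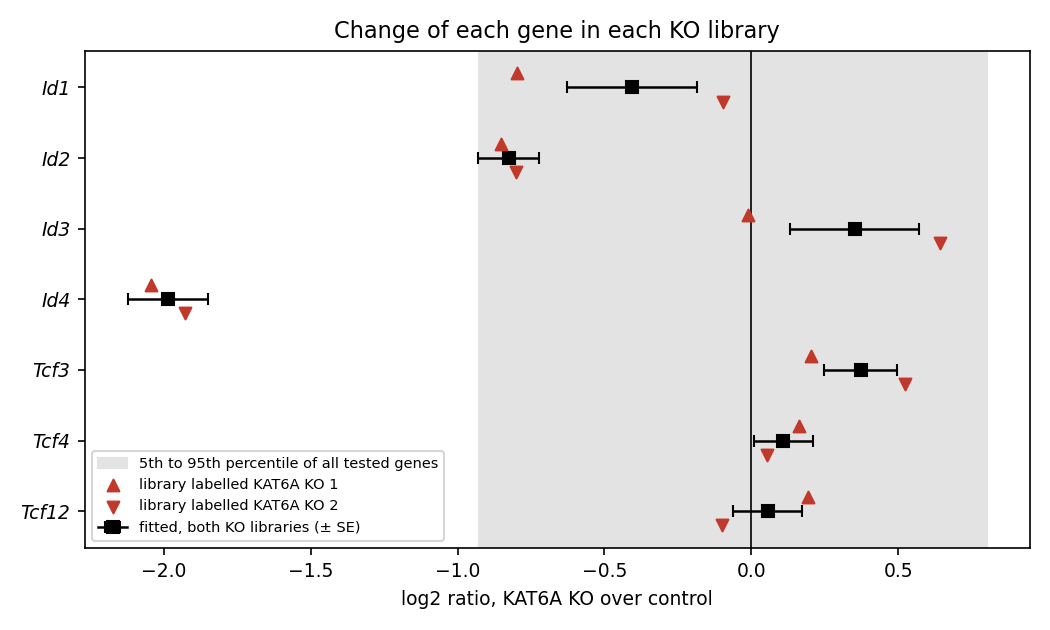
Log2 ratio of each member, KAT6A KO over control. Squares are the fitted value over both KO libraries with its SE, triangles are each KO library against the mean of the controls (pointing up for KAT6A KO 1, down for KAT6A KO 2), and the grey band runs from the 5th to the 95th percentile of all tested genes (-0.93 to 0.80). Id4 lies at -1.99, outside the band, the 2 KO libraries of Id2 lie at -0.85 and -0.80, and those of Id1 and Id3 are spread around the fitted value.

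Of the E protein genes, Tcf3 had the largest fitted change, and with an offset for transcript GC content Tcf4 had. Tcf3 encodes E12 and E47, splice forms that a count per gene does not separate. Tcf3 had 160 and 200 CPM in the libraries labelled KAT6A KO 1 and 2, and 133 and 145 CPM in control 1 and 2. Both KO libraries were above both controls, though the gap from the library labelled KAT6A KO 1 to control 2 was smaller than the distance between the KO libraries. The log2 fold change of 0.37 ± 0.12 (SE) did not pass the threshold. It passed without either KO library (0.52 on leaving out KAT6A KO 1 and 0.20 on leaving out KAT6A KO 2), where the spread came from the controls alone. With an offset for transcript GC content it was 0.10, and Tcf3 has the most GC-rich transcript of the members (61.0%).

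Tcf4, on chromosome 18, had 51.0 and 47.3 CPM in the libraries labelled KAT6A KO 1 and 2, and 43.6 and 47.5 CPM in control 1 and 2. Tcf12, on chromosome 9, had 64.2 and 52.4 CPM in the libraries labelled KAT6A KO 1 and 2, and 56.8 and 55.4 CPM in control 1 and 2. The groups overlapped for both genes, with log2 fold changes of 0.11 ± 0.10 for Tcf4 and 0.06 ± 0.12 for Tcf12 (SE). Tcf4 stood at 0.35 with the GC-content offset, and its transcript is the poorest in GC of the members (40.9%). Leaving out the library labelled KAT6A KO 1 put Tcf12 at -0.10. Leaving out that labelled KAT6A KO 2 put it at 0.19, the 1 setting of 16 tried in which Tcf12 passed.

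Over the 7 members, both KO libraries were below both controls for 2 and above both for 1, against 32.8% and 31.5% of all tested genes (64.3% on either side), so separation in this sense is common in these data. Transcript GC content is 42.6% for Id4 and 45.1% for Id2, which fell, and 40.9% for Tcf4 and 44.4% for Tcf12, which did not pass, while it is 54.7% for Id1 and 55.6% for Id3. With the GC-content offset the log2 fold changes of Id4 and Id2 were -1.80 and -0.71, and both still passed the threshold. The authors' deposited table, made with their own DESeq2 comparison, lists log2 fold changes of -1.75 for Id4, -0.77 for Id2, -0.36 for Id1, 0.31 for Id3, 0.35 for Tcf3, 0.11 for Tcf4 and 0.055 for Tcf12.

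Levels can be set side by side only per length, here as CPM per kb of exon sequence (the union of annotated exons). In the KO libraries Tcf3 was highest at 44.6 ± 6.95, followed by Id1 at 32.2 ± 10.9, Id3 at 21.1 ± 6.65, Id2 at 9.99 ± 0.247, Tcf12 at 3.75 ± 0.535, Tcf4 at 1.79 ± 0.0957 and Id4 at 1.25 ± 0.0711 CPM per kb (SD, n = 2). In this order Tcf3 and Id1, and Id1 and Id3, overlapped between libraries, and the other neighbours did not. In the controls the order was Id1 (42.7 ± 4.60), Tcf3 (34.5 ± 2.19), Id2 (17.7 ± 1.13), Id3 (16.5 ± 2.22), Id4 (4.97 ± 0.0216), Tcf12 (3.61 ± 0.0656) and Tcf4 (1.66 ± 0.101), where Id2 and Id3 overlapped. Id4 thus stood last in the KO libraries and above Tcf12 and Tcf4 in the controls. The exon unions of Tcf4 (27.4 kb) and Tcf12 (15.5 kb) sum many alternative exons and understate their levels. Per kb of the longest transcript, a measure added after seeing the data, Id4 was last in both groups (1.25 in the KO libraries and 4.97 in the controls), and Tcf3 (47.2 ± 2.999) stood above Id1 in the controls too, with overlap.

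Summed over the family, the Id genes reached 51.9 and 77.2 CPM per kb in the libraries labelled KAT6A KO 1 and 2, and 77.8 and 85.9 in control 1 and 2. The E protein genes summed to 45.7 and 54.6 CPM per kb in the KO libraries and to 38.2 and 41.3 in the controls. The ratio of the Id sum to the E protein sum was 1.14 and 1.41 in the libraries labelled KAT6A KO 1 and 2, and 2.04 and 2.08 in control 1 and 2. The groups did not overlap, as for 64.3% of single tested genes. The largest parts of the sums were Id1 and Tcf3, which did not pass. The ratio was not computed with the GC-content offset, which took the log2 fold change of Tcf3 from 0.37 to 0.10. The ratio in the KO libraries was 0.615 times that in the controls, or 0.646 times per kb of the longest transcript. It compares RNA and says nothing about protein or dimers.

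The makeup of the Id RNA is given as shares of the same sum, which are tied to each other and are no separate result. Id3 made up 31.5% and 33.4% of the Id sum in the KO libraries, against 19.2% and 21.02% in the controls. Its own level was above both controls (26.7 and 32.3 CPM) only for KAT6A KO 2, at 46.2 CPM. For KAT6A KO 1 it lay between them, at 29.3 CPM. There the share was higher beside a lower Id sum, 51.9 CPM per kb against 77.8 and 85.9 for control 1 and 2. Id4 made up 2.32% and 1.69% in the KO libraries and 6.37% and 5.81% in the controls, and Id2 18.9% and 13.2% in the KO libraries and 23.8% and 19.7% in the controls. Id1 held the largest share of this per-kb sum in each library, at 47.3% and 51.7% in the KO libraries and 50.7% and 53.5% in the controls. Of the E protein sum, Tcf3 held 86.9% and 90.7% in the KO libraries and 86.2% and 87.2% in the controls.

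**Figure D3:**
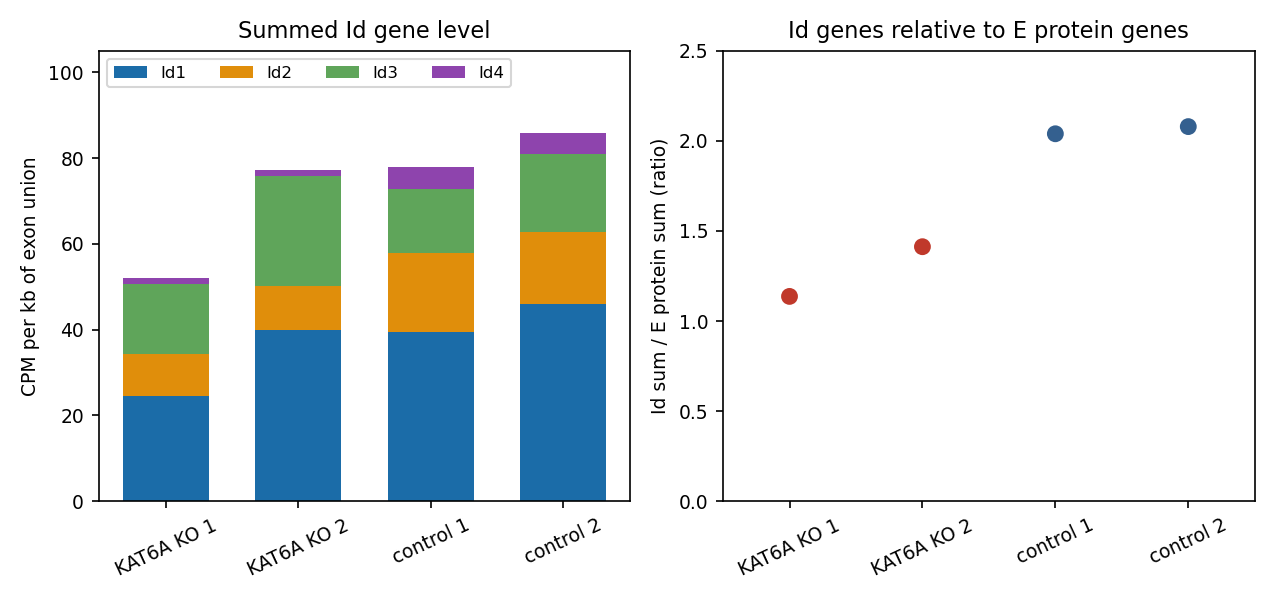
Left, the summed level of the Id genes in each library in CPM per kb of exon union, divided by gene. Right, the ratio of the Id sum to the E protein sum in each library, KAT6A KO in red and control in blue, with 1.14 and 1.41 in the KO libraries and 2.04 and 2.08 in the controls.

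Each member with a promoter window had a CpG-rich one, here with a ratio of observed to expected CpG of at least 0.6. Windows from RefSeq's table, 250 bases before to 50 after the start, were matched by symbol for Id2, Id3, Id4, Tcf3 and Tcf12, the last with 3 windows, and none was matched for Id1 and Tcf4. The ratio of observed to expected CpG was 0.99 for Id4, 0.71 for Id2, 0.70 for Id3, 1.03 for Tcf3, and 1.06 in both upstream windows of Tcf12, while the window at an internal Tcf12 start held no CpG. Over all 32851 windows the median was 0.38, and 35.8% reached 0.6. Id2, which fell, and Id3, which did not pass, thus had nearly the same ratio.

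GGCGCC and CCAAT, searched on both strands, occurred together in the windows of Id4 and Id2. Each motif was planned but their pairing was not, so nothing is read from the share of windows that hold both. GGCGCC lay at position -148 of Id4 and -231 of Id2, counted from the RefSeq start. It was in none of the windows of Id3, Tcf3 and Tcf12, and Id1 and Tcf4 had no window to search. GGCGCC was in 11.9% of all windows. CCAAT occurred 2 times in the window of Id4, 3 times in that of Id2 (all 3 downstream of the bases printed above) and 2 times in the internal window of Tcf12, against 37.4% of all windows with at least 1, and 3.81% of all windows held both motifs. The general E-box CANNTG was in 72.3% of all windows. It occurred 1 time each in the windows of Id2 and Tcf3 and in 2 of the Tcf12 windows, 2 times in the remaining Tcf12 window, and not in those of Id4 and Id3. Of the forms that CANNTG includes, CACCTG was in 20.2% of all windows and in none of the members'. Likewise CAGATG was in 17.2% of all windows and CACGTG in 7.15%, and neither was in a member's. GTCTG, a SMAD-binding letter string in 49.6% of windows, occurred 2 times in that of Id3 and 1 time in a window of Tcf12. CGCG, in 38% of windows, occurred 9 times in that of Id4, 3 times each in those of Id2 and Tcf3, 1 time in that of Id3 and 6, 7 and 0 times in those of Tcf12. A match of letters is a description and not a site of binding.

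The nearest tested coding genes on each side of the Id genes, at very different distances, did not pass the threshold. Around Id4, Rnf144b, 1013 kb before it, had a log2 fold change of -0.39 ± 0.31 (SE), and Zfp169, 222 kb after it, -0.26 ± 0.17. Around Id2, Kidins220, 30.6 kb away, was at -0.07 ± 0.12 and Rnf144a, 1204 kb away, at 0.23 ± 0.15. Around Id1 and Id3 the neighbours H13, Cox4i2, Rpl11 and E2f2 lay between 0.07 and 0.66. E2f2, 26.6 kb from Id3, had 20.04 and 41.0 CPM in the libraries labelled KAT6A KO 1 and 2, and 18.2 and 22.1 CPM in control 1 and 2, and so was high in the same library as Id3. Of the 6 neighbours of the E protein genes, both of Tcf12's passed: Cgnl1, which encodes the junction protein paracingulin, rose by 0.82 ± 0.10 (edgeR adjusted p = 0.0101) and Zfp280d, a zinc finger gene, fell by 0.61 with an SE of 0.16 (edgeR adjusted p = 0.0497). Tcf12 between them did not pass. Genes that overlap Id4 (A330033J07Rik and Gm49291) and those with counts inside Tcf12 and Tcf4 had at most 13 counts in a library, and whether the counting used strand is not stated in the labels.

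**Figure D4:**
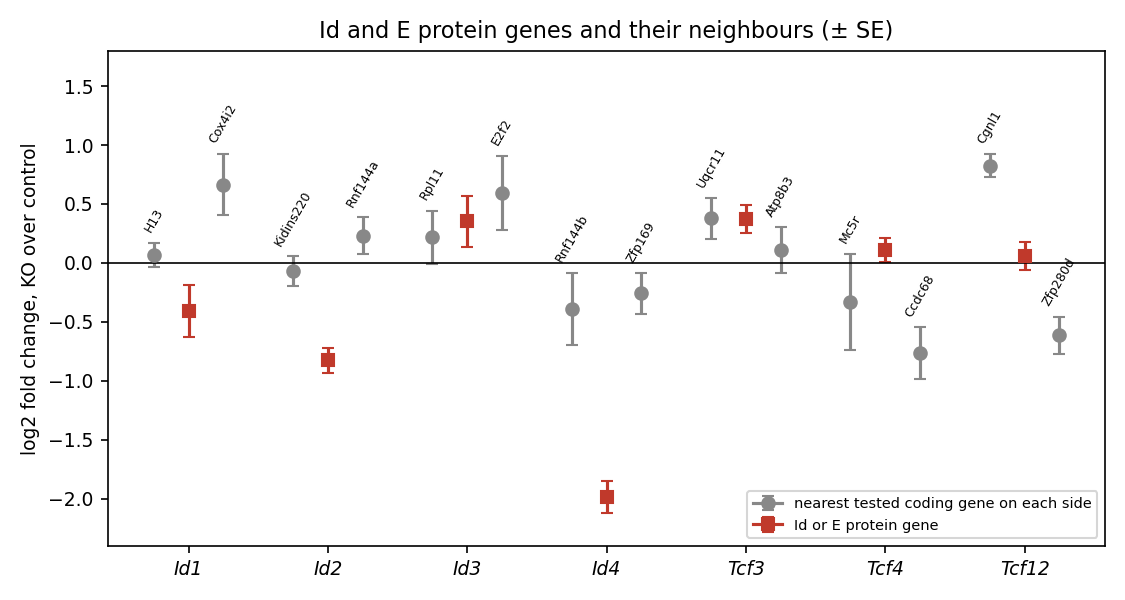
Log2 fold change, KAT6A KO over control, with its SE for each member (red squares) and for the nearest tested protein-coding gene before and after it on the chromosome (grey circles). The neighbours of Id2 and Id4, at distances from 30.6 kb (Kidins220) to 1204 kb (Rnf144a), lie between -0.39 and 0.23. Id2 and Id4 lie at -0.83 and -1.99.

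By root mean square distance between centred log2 CPM over the 4 libraries, the genes most like Id4 among 13529 were Hs6st2, a heparan sulfate sulfotransferase gene on the X chromosome (distance 0.030), Slc13a5, a citrate transporter gene on chromosome 11 (0.035), and Fosl2, an AP-1 subunit gene (0.098). Those most like Tcf3 were Fbxl6 (0.012), Polrmt, the mitochondrial RNA polymerase gene (0.014), and Rxrb, a retinoid X receptor gene (0.015). With 4 libraries in 2 groups this likeness rests mostly on the difference between groups.

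Upstream of the Id genes, some listed components of the BMP pathway were lower and the others did not pass. Of 17 ligands, receptors and SMADs 15 were tested, and 4 fell and 0 rose. Their median log2 fold change was -0.43, against 0.0055 over all tested genes. Over all tested genes 8.57% were lower and 5.76% higher at the adjusted threshold, as background to this and the later lists. These shares are no background for counts at an unadjusted p, here or in the later lists. The lists were chosen with earlier results of these data known, and nothing is read from their counts. At an unadjusted p under 0.05 edgeR had 9 lower and 1 higher, and DESeq2, limma-voom and the likelihood ratio test called 0 higher at the adjusted threshold. Bmp2, a BMP ligand, had 1.31 and 2.07 CPM in the libraries labelled KAT6A KO 1 and 2, and 12.9 and 12.9 CPM in the controls (log2 fold change -2.94 ± 0.23 SE, edgeR adjusted p = 0.00498). The type I receptor gene Acvr1 was at -0.84 ± 0.13 (edgeR adjusted p = 0.0153), Bmpr1b, another type I receptor gene, at -1.55 ± 0.31 (edgeR adjusted p = 0.0279), and the type II receptor gene Bmpr2, named after its value was seen, at -0.68 ± 0.14 (edgeR adjusted p = 0.0262). The call of Bmpr1b was lost on leaving out control 1 or control 2 (edgeR adjusted p = 0.076 and 0.0592). The call of Bmpr2 was lost on leaving out control 2 (edgeR adjusted p = 0.0603).

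Some components that ES cells are known to rely on did not pass, and they too were picked after their values were seen. Bmp4, the ligand used to replace serum, had 23.5 and 47.7 CPM in the libraries labelled KAT6A KO 1 and 2, and 29.4 and 34.7 CPM in control 1 and 2, so that the library labelled KAT6A KO 2 was the higher of the pair, as for Id1 and Id3. Smad1 was at -0.43 ± 0.16, Smad5 at 0.04 ± 0.12 and Bmpr1a at -0.43 ± 0.15 on the log2 scale.

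Of 15 BMP inhibitors, all tested, 5 fell and 1 rose, with a median of 0.07. Nog, the gene of the secreted antagonist noggin, had 0.329 and 0.764 CPM in the KO libraries and 10.02 and 11.1 CPM in the controls (log2 fold change -4.28 ± 0.32 SE, edgeR adjusted p = 0.00498). Leaving out the library labelled KAT6A KO 2 gave -4.99. Nog and Smurf2 lie on chromosome 11, where 1322 tested genes had a median log2 fold change of -0.46, with 9 higher and 536 lower. Fst, which encodes follistatin, was at -2.85 ± 0.24 (edgeR adjusted p = 0.00586) and Bmper at -1.90 ± 0.46 (edgeR adjusted p = 0.0428). Bmper was at -1.27 on leaving out KAT6A KO 1 and at -3.001 on leaving out KAT6A KO 2. Its call was lost when no genes were filtered for low counts, at a minimum of 1 CPM in 2 libraries and when chromosome 11 was left out (edgeR adjusted p = 0.211, 0.0508 and 0.0565). Smurf2, a ubiquitin ligase gene, also fell (-0.77 ± 0.11). Fstl1, a follistatin-like gene, rose by 0.85 ± 0.20 (edgeR adjusted p = 0.0379), a call lost when chromosome 11 was left out (edgeR adjusted p = 0.06). The 4 primitive endoderm markers named above fell in the same libraries, and their part in these falls was not tested.

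Other target genes of BMP-activated SMADs rose or did not pass. Of 12 listed, 10 were tested, 2 rose and 0 fell, with a median of -0.09. At an unadjusted p under 0.05 edgeR had 2 lower, the likelihood ratio test called 1 lower at the adjusted threshold, and DESeq2 and limma-voom called 0. Tbx3, a T-box factor gene of naive ES cells, had 410 and 389 CPM in the KO libraries and 294 and 288 CPM in the controls (log2 fold change 0.46 ± 0.08 SE, edgeR adjusted p = 0.0192). Dusp9, an ERK phosphatase gene that BMP induces in ES cells, rose by 0.32 ± 0.08 (edgeR adjusted p = 0.0483). Both calls were lost on leaving out control 1 or control 2, where edgeR adjusted p was 0.194 and 0.223 for Tbx3 and 0.533 and 0.379 for Dusp9. That of Dusp9 was also lost under the GC-content offset (log2 fold change 0.13, edgeR adjusted p = 0.319), when low counts were not filtered (edgeR adjusted p = 0.0556) and when chromosome 11 was left out (edgeR adjusted p = 0.0776). Smad6 and Smad7, feedback inhibitors picked here after their values were seen, did not pass, with log2 fold changes of 0.70 ± 0.23 and 0.22 ± 0.13.

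Most tissue-restricted partners of the E proteins were too low to test. Of 42 class II bHLH genes 16 were tested, 2 fell and 2 rose, with a median of 0.27. Hand1, a trophoblast and heart factor gene on chromosome 11, had 0.854 and 1.2004 CPM in the KO libraries and 8.44 and 9.75 CPM in the controls (log2 fold change -3.15 ± 0.23 SE, edgeR adjusted p = 0.00498), and Tcf24 was at -0.91 ± 0.17 (edgeR adjusted p = 0.0214). Neurod1, a neurogenic factor gene, rose by 0.84 ± 0.16 (edgeR adjusted p = 0.0226) and Msc, which encodes musculin, by 0.57 ± 0.15 (edgeR adjusted p = 0.0485). On leaving out control 1 or control 2 the calls of Tcf24, Neurod1 and Msc were lost. There edgeR adjusted p was 0.173 and 0.0821 for Tcf24, 0.103 and 0.0964 for Neurod1 and 0.481 and 0.108 for Msc. That of Msc was also lost under the GC-content offset (edgeR adjusted p = 0.116), at a minimum of 1 CPM in 2 libraries (edgeR adjusted p = 0.051) and when chromosome 11 was left out (edgeR adjusted p = 0.0723). Tcf15, a partner that Id proteins are known to restrain in ES cells, had 28.5 and 42.5 CPM in the libraries labelled KAT6A KO 1 and 2, and 18.8 and 24.1 CPM in control 1 and 2. Both KO libraries were above both controls, and the log2 fold change of 0.73 ± 0.21 did not pass (edgeR adjusted p = 0.069). It was picked after its value was seen.

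Among other E-box factors, Bhlhe40, a bHLH repressor gene that responds to stress and hypoxia, had 30.2 and 28.3 CPM in the KO libraries and 59.2 and 57.7 CPM in the controls (log2 fold change -1.0001 ± 0.10 SE, edgeR adjusted p = 0.00636). Hes6 rose by 0.83 ± 0.19 (edgeR adjusted p = 0.0382), and these were the 1 lower and 1 higher of 8 tested Hes, Hey and Bhlhe40 family genes (median -0.42). The call of Hes6 was lost on leaving out control 1 (edgeR adjusted p = 0.176), with transcript GC content as an offset (edgeR adjusted p = 0.0611) and when chromosome 11 was left out (edgeR adjusted p = 0.0565). Cdh1, the E-cadherin gene, which E-box repressors are known to silence, had 632 and 594 CPM in the KO libraries and 470 and 474 CPM in the controls (log2 fold change 0.38 ± 0.08 SE, edgeR adjusted p = 0.0319). It was the 1 gene to pass of 7 tested E-box zinc finger repressors and cadherins (median 0.09; 2 lower at an unadjusted p under 0.05, 1 by the likelihood ratio test and 0 by DESeq2 and limma-voom), and its call was lost on leaving out control 1 or control 2 (edgeR adjusted p = 0.375 and 0.328) and when chromosome 11 was left out (edgeR adjusted p = 0.0533).

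Among the cofactors of the E proteins no gene passed, and among the genes of Id protein turnover 2 fell. Of 13 tested cofactors 0 passed in either direction (median 0.17), with 3 higher and 1 lower at an unadjusted p under 0.05, 1 higher by the likelihood ratio test, and 0 by DESeq2 and limma-voom. Ep300, the most abundant, encodes the acetyltransferase p300 and had 309 and 287 CPM in the KO libraries and 259 and 257 CPM in the controls (log2 fold change 0.21 ± 0.08 SE, edgeR adjusted p = 0.133). Of 8 turnover genes 2 fell and 0 rose (median 0.0035). At an unadjusted p under 0.05 edgeR had 2 higher, DESeq2 and the likelihood ratio test each called 2 higher at the adjusted threshold, and limma-voom 0. The 2 that fell were Cdc27, a subunit gene of the anaphase-promoting complex (-0.92 ± 0.14, edgeR adjusted p = 0.0139), and Smurf2 (edgeR adjusted p = 0.0138), both on chromosome 11. Usp1, the gene of a deubiquitinase known to stabilise Id proteins, was picked after its value was seen and had 172 and 170 CPM in the KO libraries and 171 and 177 CPM in the controls.

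**Figure D5:**
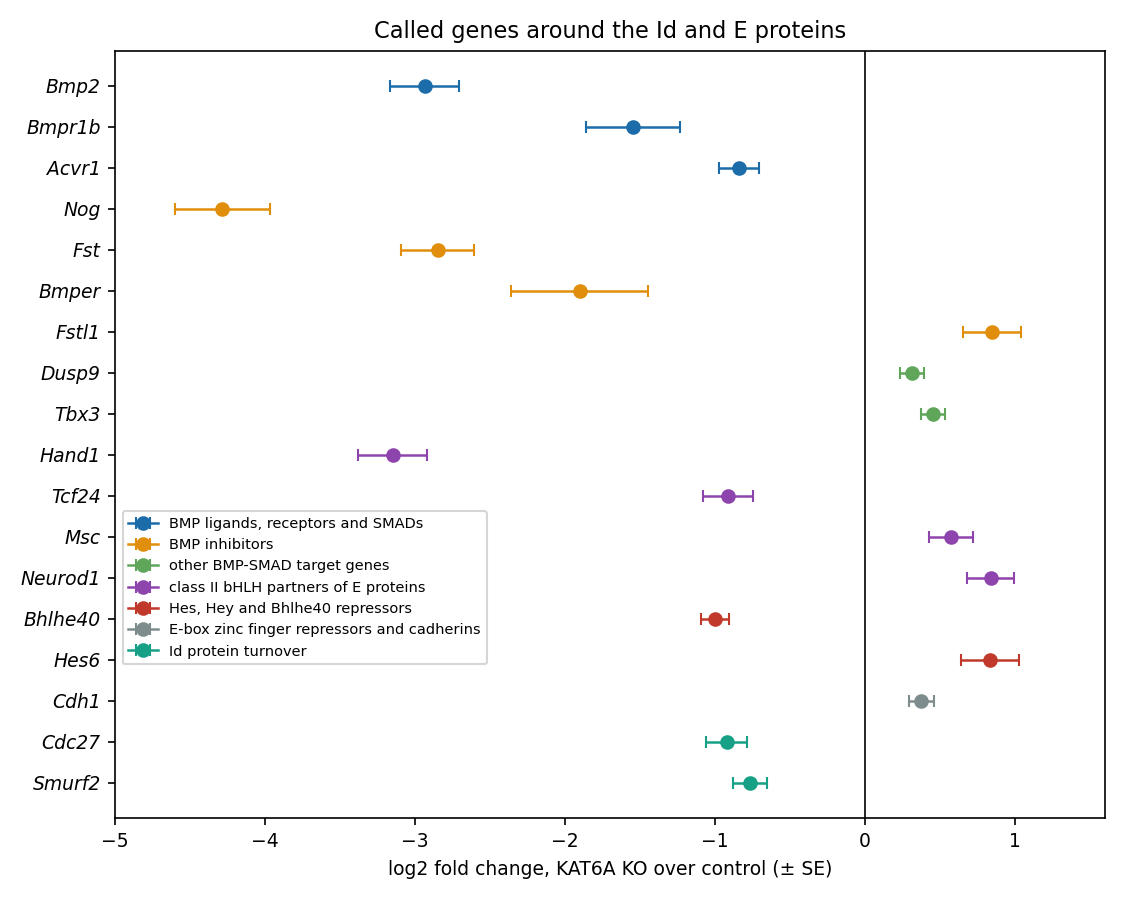
Log2 fold change, KAT6A KO over control, with its SE for the genes named by rule that passed the threshold in each related list, coloured by list. Bmp2, Nog, Fst and Hand1 lie between -4.28 and -2.85, and the genes that rose lie between 0.32 and 0.85.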

How the data were processed

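RNA was sequenced in 2 libraries labelled KAT6A KO and 2 control libraries of E14TG2a cells. Per the labels' protocols, RNA was column-purified with DNase treatment, and libraries were made with a stranded mRNA kit. The authors' deposited per-library tables hold raw read counts per gene symbol. Per the submitters' processing notes, featureCounts and DESeq2 were among the tools. The aligner, genome build, gene annotation and use of strand are not stated there or in the labels. The authors' deposited comparison has no header, and what each column holds was read from its values. These columns, as deposited by the authors, hold a mean normalized count (a signal), a log2 fold change with its SE, a Wald score, a p-value and an adjusted p-value. The Wald score equals the log2 fold change over its SE within 8.53e-14.

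The analysis used edgeR 4.0.16 in R 4.3.3, with filterByExpr by group, TMM scaling, the robust quasi-likelihood test with group as the only term, and Benjamini-Hochberg adjustment over all 16112 tested genes. Each SE is the absolute log2 fold change over the square root of F. Alternatives were RLE, upper quartile or no composition scaling, other filters, DESeq2 1.42.0, limma-voom (limma 3.58.1), edgeR's likelihood ratio test, a GC-content offset fitted by lowess (span 0.3), a block for replicate number alone or with that offset, leaving out chromosome 11, and leaving out each library. The procedures were tested on simulated data. Lengths, positions and transcript GC content came from GENCODE M21 on GRCm38, which holds 97.3% of the symbols. Promoters came from RefSeq on GRCm38.p6. Python 3.11.15 with pandas 2.3.3 and matplotlib 3.10.9 made tables and plots.

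The members and lists were chosen with earlier results of these data known. Named genes were the members, Kat6a, up to 3 passing genes per direction and list (mean of at least 1 CPM), the most abundant gene of lists with none, the nearest tested coding gene on each side of a member, and the 3 genes most like Id4 and Tcf3. Between replicates, the mean chi-square statistic per gene was 34.4 for the KO and 3.70 for the control libraries, so no library was counted as a duplicate. The relative errors given for the lowest and highest member counts cover counting error only. The values of 1 gene counted among the BMP inhibitors are not reported here.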

Additional observations from a re-analysis of the deposited data

How the results depend on the processing

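Id4 and Id2 were lower and passed the threshold under all 16 alternatives fitted, and no member changed sign where it had passed. Over all genes, 928 were higher and 1381 lower. The likelihood ratio test called 1666 higher and 2175 lower, with 1 member (Tcf3) higher, and without the genes of chromosome 11 there were 519 and 697. Without each library in turn, from 254 to 4020 genes were higher and from 648 to 4400 lower, with 0 to 2 members higher and 2 to 3 lower. The lone library of a group was then assumed to vary like the other group, and the highest counts came without a KO library, when the spread came from the control pair alone. With the replicate number as a block, 1613 genes were higher and 2147 lower, with 1 member higher (Tcf3) and 3 lower (Id1 as well). The block with the GC-content offset gave 1 member higher (Tcf4) and 3 lower. Deviations of same-numbered libraries correlated at 0.0945, so the numbers were not taken to pair the libraries. The ratio of the Id sum to the E protein sum, KO over control, was 0.609 without length and 0.646 per kb of the longest transcript, a length chosen after seeing the data. Of the 20 genes called in the related lists, 9 passed under every alternative that could be fitted and 11 did not. Chromosome 11 genes could not be fitted without that chromosome. Tcf4 and Tcf12 each passed under 1 of the 16 alternatives, Tcf12 without the library labelled KAT6A KO 2.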
